A study of Homo sapiens with 17 samples.

Results

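Small structured non-coding RNA genes were taken from the table of Ribo-STAMP editing by their biotype: snoRNA, miRNA, misc_RNA, snRNA, scaRNA, ribozyme and scRNA. Of the 18869 listed genes, 610 had one of these biotypes, with 212 snoRNA, 178 miRNA, 129 misc_RNA, 74 snRNA, 14 scaRNA, 2 ribozyme and 1 scRNA genes. All 610 were found by identifier in GENCODE release 44 on hg38 under the same biotype. They were 47 to 791 nt long, with a median of 107 nt, and 509 were at most 200 nt. The 7 genes over 400 nt were 4 genes of the U3 snoRNA (SNORD3A, SNORD3B-1, SNORD3B-2 and SNORD3C), SNORA59B, SCARNA2 and a gene named Telomerase-vert.

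Ribo-STAMP joins APOBEC1, an enzyme that turns C into U in RNA, to the ribosomal protein RPS2, so that RNAs touched by ribosomes acquire edits. The constructs were stably inserted in HEK293T cells, an established human embryonic kidney line, by lentivirus and induced for 24 h with 50 ng/ml doxycycline, and cells were crosslinked with 0.1% formaldehyde. RPS2-STAMP cells gave 3 Input, 3 PABPN IP and 3 PABPC IP samples, and Control-STAMP cells, which express APOBEC1 without RPS2, gave 3 Input, 3 PABPN IP and 2 PABPC IP samples. PABPN is the nuclear and PABPC the cytoplasmic poly(A)-binding protein, and both were immunoprecipitated, from what the paper calls the cytoplasmic portion of the cells, while the sample labels give no fractionation. The table gives 1 pooled value per gene and fraction, with no value per replicate, so no SD, test or replicate check accompanies any value below, and the depth behind a single value is unknown.

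The measure of editing was EPKM, the number of edits per kilobase of the gene, scaled to the mapped reads of the library, from which the authors subtracted the EPKM of the control cells. It is not divided by the level of the RNA, so it rises with abundance as well as with editing per molecule. The level of an RNA was given as TPM, averaged over samples of a fraction. An EPKM of 0 may mean no edits or as many edits in the control cells, and the table holds no value below 0. Of the HEK293T markers examined, CKB had an Input TPM of 970.6, INA 24.1 and NEFM 8.998, whereas EMX2 at 2.17 and PAX2 at 0.797 were low. Of 6 markers of other cell types, 5 were not among the listed genes and COL1A1 had an Input TPM of 1.90.

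These RNAs share a compact fold, protein partners and, for most, the lack of a poly(A) tail and of an open reading frame. snoRNAs guide the modification of ribosomal RNA, with C/D box snoRNAs directing methylation and H/ACA box snoRNAs pseudouridylation, and most human snoRNAs are released from introns of host genes. snRNAs form the spliceosome, 7SK holds the elongation factor P-TEFb inactive, 7SL RNA is the scaffold of the signal recognition particle that docks translating ribosomes at the endoplasmic reticulum, and microRNA hairpins are cut from longer transcripts, often from the introns or exons of messenger RNAs.

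Sequences are printed 5′ to 3′ from GENCODE release 44 on hg38. The last 60 bases are shown of 7SK (chr6:52995620-52995950, plus strand), RNU6-2 (U6 snRNA, chr19:1021522-1021628, plus strand) and RNY1 (a Y RNA, chr7:148987136-148987248, minus strand). Each sequence ends in a T run, as genes of RNA polymerase III do, with that run at the 3′ end in capitals. These bases are genomic, so they cannot show whether the RNA carried a poly(A) tail.
7SK: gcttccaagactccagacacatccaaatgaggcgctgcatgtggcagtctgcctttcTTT
RNU6-2: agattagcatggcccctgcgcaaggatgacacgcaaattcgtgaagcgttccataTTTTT
RNY1: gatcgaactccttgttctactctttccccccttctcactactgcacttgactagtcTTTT

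Over the 610 genes the median of the longest A run was 3 bases. The 3 RNAs printed here had a longest A run of at most 4 bases.

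The snoRNAs below are among those with an EPKM above 0 in the Input and in both IPs. Capitals mark the C box (TGATG, searched in the first 20 bases) and the D box (CTGA, last 15 bases) in the first 3, and the ACA box (ACA, last 8 bases) in SNORA16A, all on the strand of the gene. They are SNORD36A (chr9:133350456-133350528, plus strand), SNORD4A (chr17:28722582-28722653, plus strand), SNORD96A (chr5:181241814-181241892, minus strand) and SNORA16A (chr1:28580920-28581056, minus strand).
SNORD36A: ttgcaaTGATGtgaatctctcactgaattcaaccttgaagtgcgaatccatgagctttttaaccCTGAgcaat
SNORD4A: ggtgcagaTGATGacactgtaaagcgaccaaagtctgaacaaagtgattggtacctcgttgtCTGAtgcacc
SNORD96A: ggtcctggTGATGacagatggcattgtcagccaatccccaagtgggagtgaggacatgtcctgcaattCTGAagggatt
SNORA16A: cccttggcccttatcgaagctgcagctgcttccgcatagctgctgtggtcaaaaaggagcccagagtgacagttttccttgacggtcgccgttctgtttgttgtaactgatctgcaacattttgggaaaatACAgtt

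Both C and D boxes were found in 81 of 106 genes with a C/D box symbol, in 0 of 90 with an H/ACA symbol and in 2.17% of the other 414 genes. The ACA box was found in 80 of 90 H/ACA genes, in 12.3% of C/D genes and in 9.90% of the others.

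For the microRNAs with the highest EPKM in a fraction or above 0 in all 3, mature sequences are given from RefSeq on GRCh38.p14 with the seed, bases 2 to 8, in capitals. Of the 178 miRNA genes, 158 matched the RefSeq table by symbol. These matched genes had 217 distinct seeds, and 5 seeds occurred in more than 1 gene.
hsa-miR-1244: aAGUAGUUgguuuguaugagaugguu
hsa-miR-3654: gACUGGACaagcugaggaa
hsa-miR-1182: gAGGGUCUugggagggaugugac
hsa-miR-4737: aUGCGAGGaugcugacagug
hsa-miR-3605-5p: uGAGGAUGgauagcaaggaagcc
hsa-miR-3605-3p: cCUCCGUGuuaccuguccucuag
hsa-miR-7113-5p: uCCAGGGAgacagugugugag
hsa-miR-7113-3p: cCUCCCUGcccgccucucugcag

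Editing of the small RNA genes was most often listed in the PABPN IP. An EPKM above 0 was found for 115 of 610 genes (18.9%) in the Input, 282 (46.2%) in the PABPN IP and 132 (21.6%) in the PABPC IP. Over all listed genes these shares were 54.9% in the Input, 64.9% in the PABPN IP and 63.1% in the PABPC IP, so the small RNA genes lay below the background in each fraction and least so in the PABPN IP. The lead of the PABPN IP was not seen among the 71 small RNA genes not overlapped by another gene on their strand, of which 24, 23 and 20 were above 0 in the Input, PABPN IP and PABPC IP, nor among the 78 with a TPM. In all 3 fractions 218 small RNA genes (35.7%) were at 0, against 11.1% of all listed genes. A value above 0 in the PABPN IP alone was found for 181 small RNA genes (29.7%), against 13.8% of all listed genes, and a value above 0 in all 3 fractions for 16 (2.62%), against 31.8%.

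The PABPN IP had the highest share in each of the larger biotypes, and the biotypes differed more in the PABPC IP. In the PABPN IP the share above 0 was 47.2% for snoRNA, 48.9% for miRNA, 41.9% for misc_RNA, 44.6% for snRNA and 35.7% for scaRNA genes. In the PABPC IP it was 34.3% for miRNA genes but 21.7% for snoRNA, 13.5% for snRNA and 8.53% for misc_RNA genes. In the Input it ran from 8.53% for misc_RNA to 25.7% for snRNA genes. For lncRNA genes, which are also non-coding, the shares were 24.3% in the Input, 54.1% in the PABPN IP and 34.1% in the PABPC IP, an order shared by the miRNA genes and not by the other small RNA biotypes named here. Protein-coding genes had 67.0%, 69.2% and 74.5%.

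**Figure D1:**
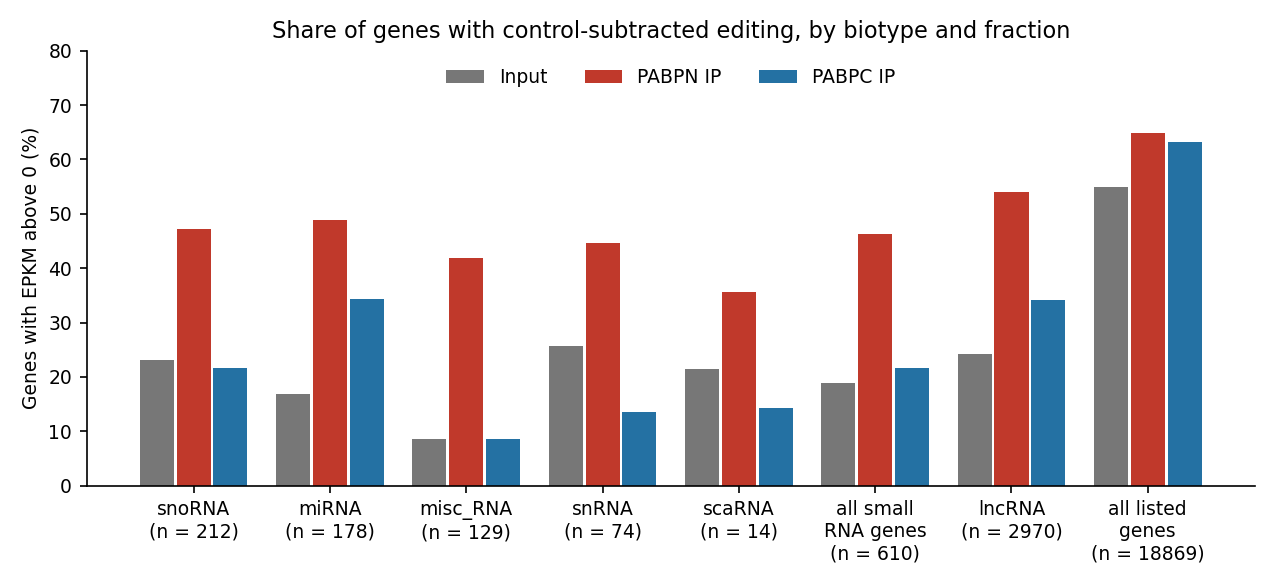
Percent of genes with a control-subtracted EPKM above 0, by biotype (Input grey, PABPN IP red, PABPC IP blue), with the number of listed genes under each group. The PABPN IP bar is the tallest in each of the 5 small RNA biotypes drawn, at 35.7% to 48.9%, and the miRNA genes have the highest PABPC IP bar among them, at 34.3%.

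Between the IPs, EPKM was higher in the PABPN IP for 250 of the 610 genes (41.0%), higher in the PABPC IP for 94 (15.4%) and equal for 266. Over all listed genes 41.8% were higher in the PABPN IP and 42.4% in the PABPC IP. A difference of at least 2-fold in EPKM + 0.01 was found for 228 small RNA genes (37.4%) towards the PABPN IP, against 25.5% of all listed genes, and for 79 (13.0%) towards the PABPC IP, against 26.1%. The small RNA genes thus met the background in the share higher in the PABPN IP and lay below it in the share higher in the PABPC IP. Among the 70 genes above 0 in both IPs, 38 were higher in the PABPN IP and 32 in the PABPC IP.

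EPKM was multiplied by the length in kb, which gives edits scaled to the mapped reads, less those of the control cells. The product piled up in a narrow range rather than spreading evenly. In the Input 48 of the 115 values above 0 lay between 0.010 and 0.018, and 29 of them between 0.014 and 0.016. In the PABPN IP 106 of 282 lay in the wider range, with the fullest 0.002-wide bin from 0.012 to 0.014, and in the PABPC IP 52 of 132, with the fullest bin from 0.010 to 0.012. At the Input median of 0.0168, a gene of 70 nt had an EPKM of 0.240 and one of 300 nt an EPKM of 0.0561. The number of edits behind a value is unknown.

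**Figure D2:**
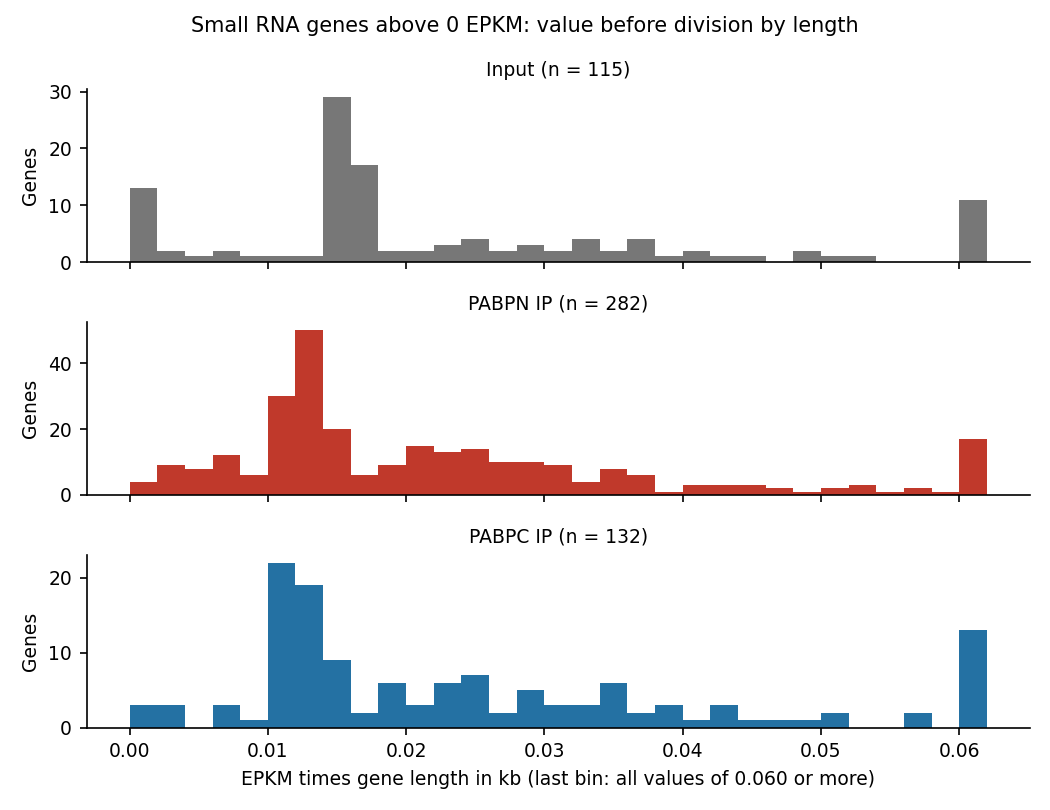
Number of small RNA genes by EPKM times gene length in kb, in bins of 0.002, for the genes above 0 EPKM in each fraction, with all values of 0.060 or more in the last bin. Each fraction has its fullest bin between 0.010 and 0.016.

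Genes of identical sequence often differed in EPKM. In all, 28 members fell in 9 sets of identical sequence. Of 8 genes with the 164 nt sequence of U1 snRNA, which recognises the 5′ splice site, 2 were above 0 in the Input, 5 in the PABPN IP and 1 in the PABPC IP. RNU1-1 had an EPKM of 0, 0 and 0.434 in the Input, PABPN IP and PABPC IP, RNVU1-18 of 0, 0.537 and 0, and RNU1-28P of 0 in all 3. Some copies were closer, such as RNU6-4P and RNU6-6P, each at 0.127 in the PABPN IP and at 0 elsewhere. Reads from such copies cannot be told apart within the shared sequence, and this holds too for the near-identical copies of U6, 7SL, 7SK and Y RNA.

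Among the genes with an EPKM above 0 in all 3 fractions, 3 microRNA hairpins had the highest Input values, whereas RN7SL1 and SNORD4A were highest in the PABPC IP. MIR1244-1 (chr2:231713314-231713398, plus strand) lies in an exon of PTMA, which encodes prothymosin alpha, and had an EPKM of 2.29 in the Input, 0.864 in the PABPN IP and 0.507 in the PABPC IP. The Input value was the highest EPKM of the whole table. Its host PTMA had 0.367, 0 and 0.371. MIR1244-2 (chr5:118974586-118974670, plus strand), whose hairpin is identical, had 2.05, 0.540 and 0.472, and the third identical copy, MIR1244-4, had 0, 0.258 and 0.228. All 3 copies gave a higher EPKM in the PABPN IP than in the PABPC IP, while PTMA gave the opposite order. Reads within the shared hairpin sequence cannot be told apart, so the 3 copies are not 3 separate observations. MIR1244-1 is also part of a PTMA exon, so hairpin and host are not separate RNAs in this comparison.

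The other hairpins above 0 in all 3 fractions had lower values than both copies in the Input. MIR3654, which lies in a processed pseudogene on chromosome 7, had 0.772 in the Input, 0.292 in the PABPN IP and 0.520 in the PABPC IP. MIR1182, in an exon of FAM89A, had 0.0104, 0.0901 and 0.506. MIR4737, in an exon of HEATR6, had 0.189, 0.0880 and 0.138. The fraction with the highest value was the Input for MIR3654 and MIR4737 and the PABPC IP for MIR1182.

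The 5 C/D and H/ACA box snoRNAs above 0 in all 3 fractions showed no shared order either. SNORD36A, in an intron of the ribosomal protein gene RPL7A, had an EPKM of 0.202 in the Input, 0.484 in the PABPN IP and 0.00878 in the PABPC IP. SNORD4A, in an intron of RPL23A, had 0.206, 0.0495 and 0.552, and SNORD96A, in an intron of RACK1, had 0.507, 0.195 and 0.211. The H/ACA snoRNA SNORA16A, in an intron of SNHG12, had 0.0117, 0.524 and 0.252, and SNORA74A, in an intron of SNHG4, had 0.0905, 0.139 and 0.0638. The PABPN IP was highest for SNORD36A, SNORA16A and SNORA74A, the PABPC IP for SNORD4A and the Input for SNORD96A. SCARNA12 and SCARNA10, which carry the names of Cajal body RNAs and the biotype snoRNA, were highest in the PABPC IP at 0.327 and 0.274, against 0.203 and 0.201 in the PABPN IP.

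RNAs of RNase P, the signal recognition particle and the spliceosome were also in this set of 16. RPPH1, the RNA of RNase P, which cuts the 5′ leader from transfer RNA precursors, had 0.2999, 0.295 and 0.388 in the Input, PABPN IP and PABPC IP, close to each other. RMRP, the RNA of the related RNase MRP and not in the set, had 0.0148, 0.0125 and 0. RN7SL1 had 0.214, 0.114 and 0.672, and BCYRN1 had 0.161, 0.421 and 0.125. RNVU1-34, a U1 variant, had 0.0982, 0.0392 and 0.137.

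**Figure D3:**
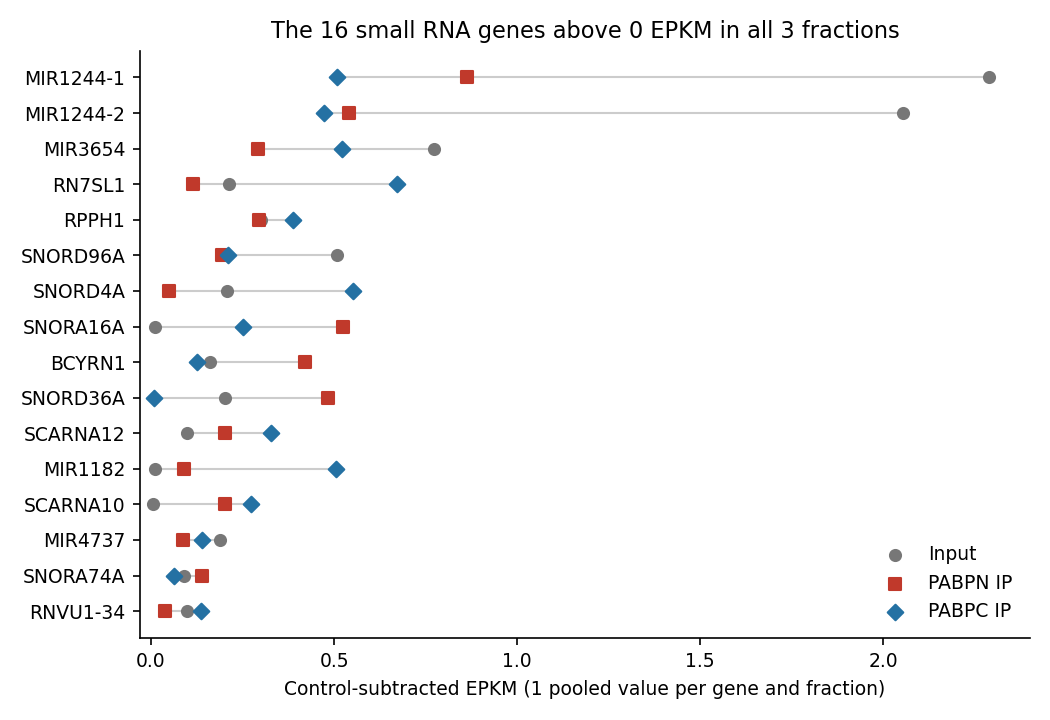
Control-subtracted EPKM of the 16 small RNA genes above 0 in all 3 fractions, 1 pooled value each in the Input (grey circles), the PABPN IP (red squares) and the PABPC IP (blue diamonds), ordered by their mean. MIR1244-1 and MIR1244-2 stand far to the right in the Input at 2.29 and 2.05, and the order of the fractions differs from gene to gene.

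The highest values within each IP are given here for single genes. In the PABPN IP the highest was MIR7113, at 1.04 and listed at 0 elsewhere, followed by MIR1244-1, MIR4658 at 0.824 and MIR6859-2 at 0.753. The H/ACA snoRNA SNORA40 at 0.669, the C/D snoRNAs SNORD12 at 0.654 and SNORD27 at 0.634, and the U4 snRNA gene RNU4-1 at 0.648 completed the first 8. In the PABPC IP the highest were MIR3605 at 0.857, MIR6721 at 0.809 and MIR636 at 0.720, and RN7SL1 and RN7SL3, at 0.672 and 0.600, were among the first 8. No member was among the first 8 in both IPs, but lists of 8 out of 610 genes would seldom share a gene in any case. The overlap over all listed genes was not counted, so no difference between the IPs is read from it.

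Where a gene lay in its host went with the share in the PABPC IP. Of the 610 genes, 533 lay inside another gene on the same strand, and by the canonical transcript of the host 67 were in an exon, 33 crossed an exon edge and 433 were in an intron. Of the 48 miRNA hairpins in an exon, 24 (50.0%) were above 0 in the PABPC IP, and of the 32 across an exon edge 18 (56.3%) were. Of the 86 in an intron 13 (15.1%) were, and of the 200 intronic snoRNAs 41 (20.5%). In the PABPN IP the same groups differed less, with 56.3%, 65.6%, 40.7% and 47.5%. In the Input the shares were 27.1%, 15.6%, 8.14% and 21.5%. Of the 12 hairpins outside a host gene, 5 (41.7%), 4 (33.3%) and 6 (50.0%) were above 0 in the Input, PABPN IP and PABPC IP. The last of these equals the share of exonic hairpins. Among intronic hairpins 35 were higher in the PABPN IP and 8 in the PABPC IP, whereas among exonic hairpins the counts were 21 and 18. Over all listed genes 63.1% were above 0 in the PABPC IP, 41.8% were higher in the PABPN IP and 42.4% in the PABPC IP, so each of these groups lay below the background share above 0 in the PABPC IP.

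**Figure D4:**
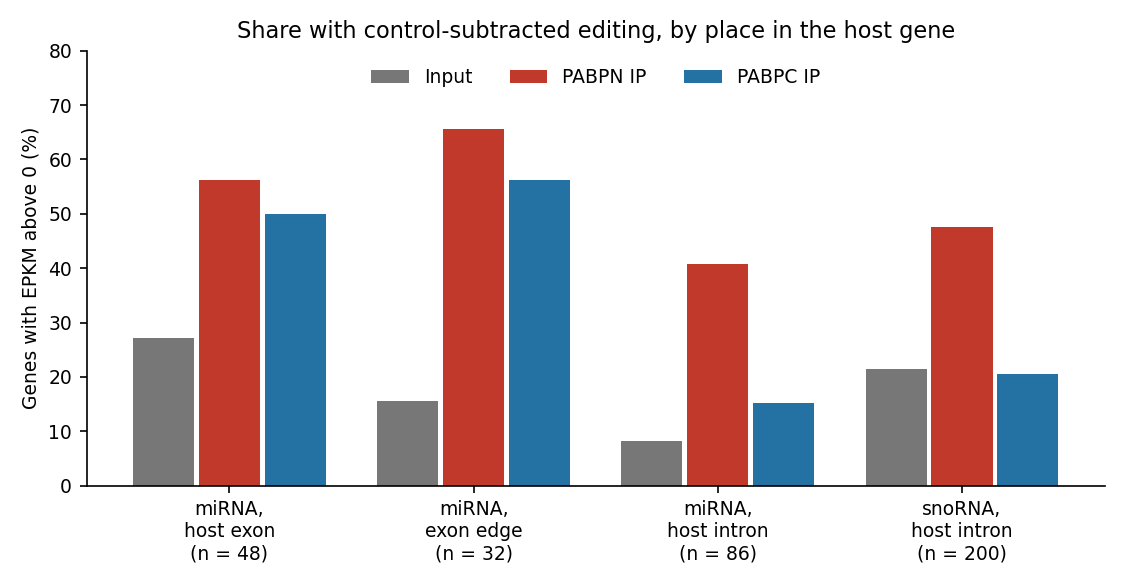
Percent of miRNA and snoRNA genes with a control-subtracted EPKM above 0 (Input grey, PABPN IP red, PABPC IP blue), by their place in the canonical transcript of the host gene. The PABPC IP bar stands at 50.0% and 56.3% for hairpins in or across an exon and at 15.1% and 20.5% for intronic hairpins and snoRNAs.

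The level of the host also differed between these groups. The median host TPM in the PABPC IP was 26.5 for exonic hairpins, 39.7 for those at an exon edge, 59.1 for intronic hairpins and 124.4 for intronic snoRNAs, and its part in the shares was not tested. Whether the member or the unspliced or spliced host transcript carried the edits cannot be told apart in these values. Examples of exonic hairpins at 0 in the Input and above 0 in the PABPC IP were MIR4680 in PDCD4, at 0.565, and, across an exon edge, MIR3605 in PHC2, at 0.857. In the PABPC IP 83 of the 511 members with a listed host were above 0 together with their host, 22 were above 0 with the host at 0, 327 were at 0 with the host above 0, and 79 were at 0 with the host at 0.

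Hosts with several members held different numbers above 0, from few members each, and the differences were not tested. NOP56, which encodes a core protein of C/D snoRNPs, holds 6 members, of which 0 were above 0 in the Input, 3 in the PABPN IP and 2 in the PABPC IP. TAF1D holds 6, with 1, 4 and 2, and NOP58 holds 4, all at 0 in the 3 fractions. The snoRNA host lncRNA SNHG1 holds 5 listed members, with 2, 2 and 1. Of all 610 small RNA genes 18.9%, 46.2% and 21.6% were above 0, and of all listed genes 54.9%, 64.9% and 63.1%.

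Y RNAs, which bind the Ro60 and La proteins, were above 0 almost only in the PABPN IP. Of 38 Y RNA genes, 34 of which carry only the family name, 0 were above 0 in the Input, 21 (55.3%) in the PABPN IP and 1 (2.63%) in the PABPC IP, against 54.9%, 64.9% and 63.1% of all listed genes. Of all 433 intronic small RNA genes 15.2%, 46.2% and 14.3% were above 0. The values above 0 in the PABPN IP had a median of 0.132. Of the 38, 34 lay in introns, and the canonical gene RNY1 was at 0 in all 3 fractions. Genes named as pseudogene copies of small RNAs had a like pattern, with 9 of 104 above 0 in the Input, 42 in the PABPN IP and 8 in the PABPC IP.

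A TPM was given for 78 of the 610 genes (12.8%), and 76 of these had no host gene on their strand. Of the 532 without a TPM, 531 lay inside another gene, and the methods state that overlapping regions were removed before reads were counted. The exceptions were VTRNA1-3 and MIR632, with a TPM inside a lncRNA, and RMRP, without a TPM and without a host. Genes other than small RNAs that lacked a TPM were above 0 EPKM in 23.0% of cases in the Input, 56.7% in the PABPN IP and 30.5% in the PABPC IP, against 16.7%, 48.1% and 20.5% of the small RNA genes without a TPM. In the 78 genes with a TPM the PABPN IP did not stand out, with 26, 26 and 23 above 0 in the Input, PABPN IP and PABPC IP. Edits were also listed where reads were not. RNU11, the U11 snRNA of the minor spliceosome, is overlapped by another gene on its strand. It had a TPM of 0 in each fraction and an EPKM of 0.0454, 0.184 and 0. Of the small RNA genes at a TPM of 0, 3 of 6 (50%) in the Input had an EPKM above 0. In the PABPN IP 2 of 8 (25%) did, and in the PABPC IP 4 of 19 (21.1%). Over all genes at a TPM of 0 these shares were 23.7%, 46.2% and 24.8%.

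Among the genes with a TPM, small RNAs made up 37.1% of the summed TPM in the Input, 3.75% in the PABPN IP and 0.856% in the PABPC IP. Most of the Input share came from 7SK, with 20.4%, and RN7SL1, with 15.03%. TPM of the median gene was higher in the IPs than in the Input, by 1.18 on the log2 scale in the PABPN IP and by 0.75 in the PABPC IP. Ratios are therefore given as log2 of (TPM + 0.5) over (Input TPM + 0.5) minus this median over all 16905 genes with a TPM.

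Relative to the median gene, the small RNAs as a whole were lower in both IPs, and more so in the PABPC IP. The miRNA genes were an exception, mostly higher in the PABPN IP and evenly split in the PABPC IP. The median ratio over the 78 genes was -1.35 in the PABPN IP and -2.60 in the PABPC IP, and without centring it was -0.17 and -1.85. Without centring 43 of the 78 were below their Input TPM in the PABPN IP, and 53 were in the PABPC IP, against 3.22% and 10.5% of all genes with a TPM. At least 2-fold below the median gene were 50 (64.1%) in the PABPN IP, against 7.24% of all genes with a TPM, and 52 (66.7%) in the PABPC IP, against 4.19%. The 50 include 5 genes listed at a TPM of 0 in all 3 fractions, whose ratio is set by the pseudocount and the centring alone, and without them the counts were 45 (61.6%) and 52 (71.2%) of 73, against 6.998% and 4.20% of all genes above 0 in a fraction. Of the 10 miRNA genes above 0 TPM in a fraction, 7 were higher and 3 lower than the median gene in the PABPN IP, with a median of 0.44. In the PABPC IP 5 were higher and 5 lower, with a median of -0.21, or 0.54 without centring. Between the IPs 41 (52.6%) were at least 2-fold lower in the PABPC IP than the median gene, against 18.5% of all genes. At least 2-fold above the median gene were 14 (17.9%) in the PABPN IP, against 10.1% of all genes with a TPM, and 2 (2.56%) in the PABPC IP, against 0.952%. Of the 78 signs, 17 turned in the PABPN IP and 12 in the PABPC IP when the ratios were not centred. The PABPC IP median depended on low-level genes, at -3.92 with a pseudocount of 0.1 and at -3.47 for members with a TPM of at least 1 in a fraction.

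7SK and RN7SL1 were the 2 RNAs with the highest TPM of the Input. 7SK had a TPM of 174271 in the Input, 28629 in the PABPN IP and 1725 in the PABPC IP, with centred ratios of -3.79 and -7.40. Its EPKM was 0.0723 in the Input and it was listed at 0 in each IP, while the 57 genes other than small RNAs with an Input TPM of at least 1000 had a median EPKM of 0.148. RN7SL1 had a TPM of 128398, 5066 and 5547, with centred ratios of -5.85 and -5.28, so that the levels in the 2 IPs were close. Its EPKM was 0.214 in the Input, near the middle of the same 57 genes, of which 30 were lower and 27 higher. In the PABPC IP its EPKM was 0.672, above 100 of the 124 other genes with a TPM of at least 1000 there. RN7SL3, a near-identical copy and so not a separate observation, had an EPKM of 0.328, 0 and 0.600 and a TPM of 11110.1, 263.7 and 443.6. In the PABPN IP its EPKM of 0 differed from that of RN7SL1, 0.114. RN7SL2 lies within another gene, has no TPM and had an EPKM of 0.168, 0 and 0.

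Spliceosomal snRNAs had a far lower TPM in the PABPC IP than in the PABPN IP. RNU5F-1, a gene of U5 snRNA, had a TPM of 174.3 in the Input, 104.9 in the PABPN IP and 3.02 in the PABPC IP. RNU4-2, of U4 snRNA, had 74.8, 72.3 and 3.06, and RNU5D-1 had 51.6, 51.6 and 0.448. Over the 30 U snRNA genes with a TPM the median centred ratio was -1.53 in the PABPN IP and -3.88 in the PABPC IP, and without centring it was -0.35 and -3.13. Between the IPs 28 of 30 had a lower TPM in the PABPC IP with and without centring, while 68.1% of all genes with a TPM were lower there without centring. U6 RNA was less far apart: RNU6-2 had a TPM of 30.5, 43.9 and 16.5, higher in the PABPN IP than in the Input before centring and at -0.67 after it. Of all 73 U snRNA genes, 26.0% were above 0 EPKM in the Input, 45.2% in the PABPN IP and 13.7% in the PABPC IP, against 54.9%, 64.9% and 63.1% of all listed genes. Among single genes, RNU5B-1 was at 0 EPKM in all 3 fractions at an Input TPM of 78.9, and RNU5D-1 had an EPKM of 0.285, 0 and 0.

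The few snoRNAs with a TPM of their own fell in 2 groups. SNORD3A is the U3 snoRNA, needed for cleavage of the ribosomal RNA precursor. It had a TPM of 550.2 in the Input, 118.5 in the PABPN IP and 21.2 in the PABPC IP. All 5 C/D box genes with a TPM, most of them U3 genes, were at least 2-fold below the median gene in both IPs. The H/ACA genes SNORA80C and SNORA11F went the other way in the PABPN IP. SNORA80C had a TPM of 27.04, 274.2 and 41.8, and SNORA11F of 11.4, 148.6 and 22.4, with centred ratios of 2.14 and 2.46 in the PABPN IP and of -0.13 and 0.20 in the PABPC IP, where the first is above 0 without centring. SNORD3A had an EPKM of 0.120, 0 and 0.214.

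BCYRN1, the scRNA of the set and a neuronal transcript of RNA polymerase III, was higher in both IPs than the median gene. Its TPM was 4.10 in the Input, 52.2 in the PABPN IP and 16.1 in the PABPC IP, with centred ratios of 2.34 and 1.10. It was 1 of the 2 small RNAs at least 2-fold above the median gene in the PABPC IP. RNY1, also a polymerase III transcript, had a TPM of 42.5, 6.27 and 8.66, with centred ratios of -3.85 and -2.98. The other Y RNA gene with a TPM, which carries only the family name Y_RNA, had a TPM of 4.76, 37.0 and 14.9, with centred ratios of 1.65 and 0.81, on the same side of the median gene as BCYRN1.

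Vault RNA and microRNA hairpins completed the set. VTRNA1-3, a vault particle RNA, had a TPM of 87.7, 184.7 and 3.99, close to the median gene in the PABPN IP at -0.11, above the Input before centring, and far below it in the PABPC IP at -5.04. Its EPKM was 0, 0.411 and 0. MIR3685 had the highest centred ratio of all 78 genes in the PABPN IP, 3.55, from a TPM of 8.92, 249.0 and 7.15, and an EPKM of 0, 0.103 and 0. MIR1244-2 had a TPM of 122.1, 167.6 and 374.9 and was the only hairpin with a TPM above 100 in the PABPC IP.

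**Figure D5:**
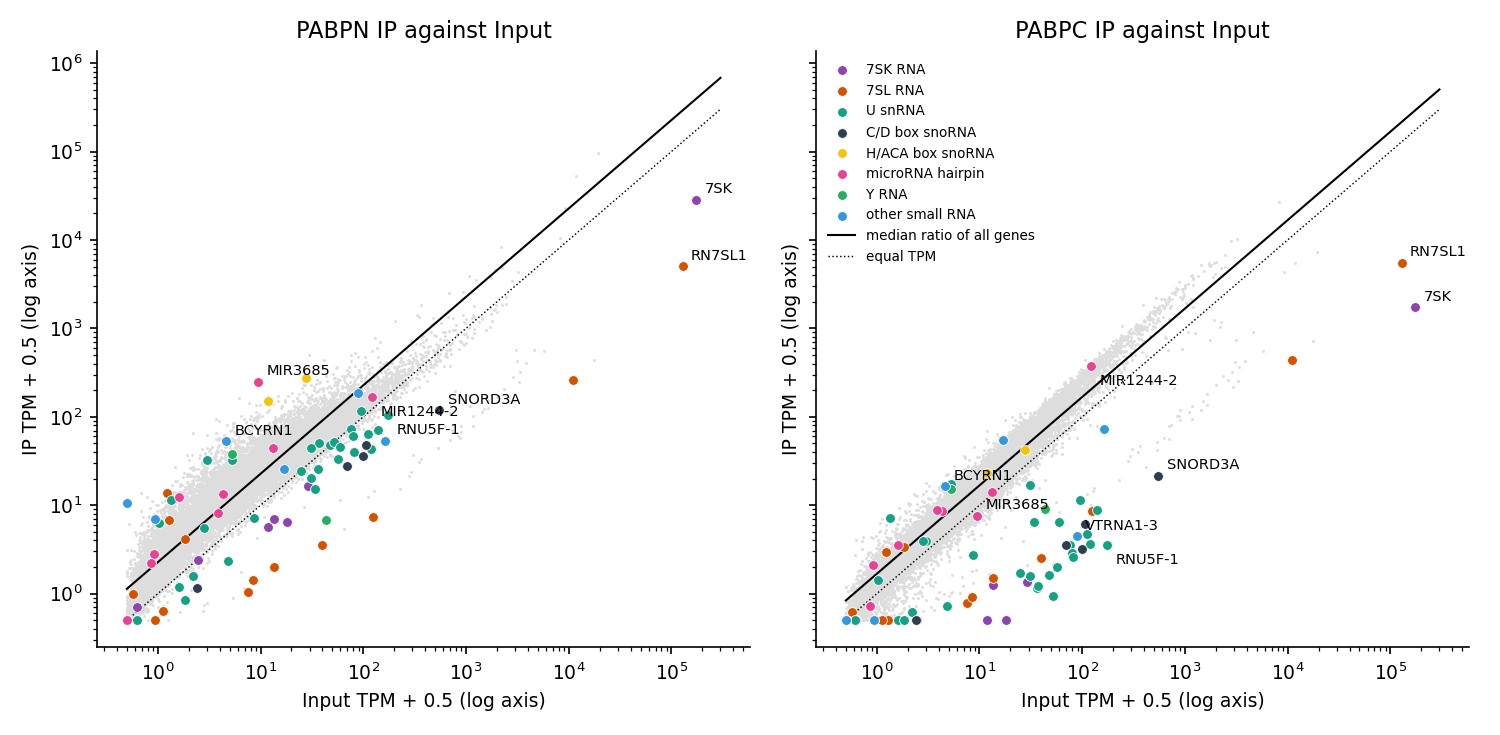
TPM + 0.5 in the PABPN IP (left) and the PABPC IP (right) against the Input, on log axes, for the 78 small RNA genes with a TPM (colours by class) and all other genes (grey), with the median ratio of all genes (solid line) and equal TPM (dotted line). 7SK, whose TPM went from 174271 (Input) to 1725 (PABPC IP), and most U snRNAs lie below the solid line in the right panel, whereas BCYRN1 and MIR3685 lie above the solid line in the left.

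The messenger RNAs of proteins that bind or process these RNAs differed from them in each fraction, and not in the PABPC IP alone. All 45 genes of the list were present, with 39 above 0 EPKM in the Input, 38 in the PABPN IP and 37 in the PABPC IP, and EPKM was higher in the PABPN IP for 23 and in the PABPC IP for 21. Of the small RNA genes 18.9%, 46.2% and 21.6% were above 0, and of protein-coding genes 67.0%, 69.2% and 74.5%. Over all listed genes 54.9%, 64.9% and 63.1% were, with 41.8% higher in the PABPN IP and 42.4% in the PABPC IP. In TPM 8 (17.8%) were at least 2-fold below the median gene in the PABPN IP, against 7.24% of all genes, and 0 in the PABPC IP, against 4.19%. SRP9, which binds the Alu part of 7SL RNA, had an EPKM of 1.03, 0.234 and 0.470 in the Input, PABPN IP and PABPC IP. SNRPB, a protein of the Sm ring of snRNPs, had 0.696, 0 and 0.0946, and DKC1, the pseudouridine synthase of H/ACA snoRNPs, 0.225, 0.0649 and 0.0967. HEXIM1, which acts with 7SK, had 0, 0.0615 and 0, and DGCR8, which recognises microRNA hairpins, 0.0153, 0.105 and 0.00914.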

How the data were processed

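Ribosomal RNA-depleted RNA of 17 samples was sequenced. According to the methods, reads were mapped to hg38 with STAR by the authors and counted with featureCounts 2.0.2 on an annotation derived from GENCODE release 34 without overlapping regions or readthrough transcripts, and exonic and intronic TPM were summed. The deposited values are a background-subtracted editing signal (EPKM, from edits with a confidence score of at least 0.5) and a TPM averaged per fraction. They are pooled, so the tests planned for values per sample could not be made. How replicates were combined is not given in the sources used here. Library sizes are given in the methods only as a minimum and an average, and the files hold no counts, so the depth behind a value is unknown and no interval is given.

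Computed here were shares, medians and log2 ratios, with Python 3.11.15, NumPy 2.4.6 and pandas 2.3.3, checked on simulated data. Positions, hosts and sequences came from GENCODE release 44. A host is a gene of another biotype that holds the member on its strand. The members and lists were chosen with earlier results of these data known. Named were members above 0 in all 3 fractions, the first 8 by EPKM and by TPM in each, and a list of well-known RNAs. Members were classed by symbol, with family names (Y_RNA, 7SK, Metazoa_SRP, U3) added to their class. A fold was counted at 2-fold with pseudocounts of 0.01 EPKM and 0.5 TPM.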

Additional observations from a re-analysis of the deposited data

How the results depend on the processing

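No paired analysis was possible because each fraction has 1 pooled value, and leaving out a replicate was not run for the same reason. Of 51 alternatives, 31 stayed within 1.5-fold of the reported value and none turned the sign of a median ratio or of the difference between the IPs in members higher, but the order of the fractions in members above 0 changed. Counts fell with the number of genes kept, while shares changed less. Among the 78 members with a TPM, 26, 26 and 23 were above 0 EPKM in the Input, PABPN IP and PABPC IP, 23 were higher in the PABPN IP and 36 were at least 2-fold apart. Among the 25 whose TPM reached 5 in each IP, 10, 9 and 12 were above 0, so that the PABPN IP no longer led. Among the 71 not overlapped on their strand, 24, 23 and 20 were above 0, with the Input first, and 21 were higher in the PABPN IP, against 15 in the PABPC IP. Among members above 0 in both IPs 38 were higher in the PABPN IP. The median TPM ratio of the PABPN IP over the Input was -0.17 without centring and, as a share of the TPM without the members, chosen after seeing the data, -0.61. That of the PABPC IP over the Input was -1.85 without centring, -3.92 with a pseudocount of 0.1 and -3.47 for members with a TPM of at least 1. That of the PABPC IP over the PABPN IP was -1.93 and -1.81 under the last 2 settings. Without the 5 members at 0 TPM in every fraction, also chosen after seeing the data, the 3 medians were -1.50, -3.03 and -1.35. By exons of any transcript, also chosen after seeing the data, 34.4% of exonic and 18.8% of intronic hairpins were above 0 in the PABPC IP. The genes are short and the number of edits behind a value is unknown, so the precision of each EPKM is unknown too.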
